A study of Rattus norvegicus with 196 samples.

Results

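Kcna2, Kcnk9 and Cacna1i encode 3 ion channels that set how readily a neuron fires. They were followed in the rat brain under chronic treatment with the antidepressant fluoxetine. The members are the 3 transcripts that carry these names in the list of transcripts published with the study (ENSRNOT00000050149, ENSRNOT00000012408 and ENSRNOT00000048790), of 29188 transcripts in the count tables. The study lists them among transcripts that responded in these same samples, so the list is not independent evidence of a direction. Other transcripts of the same genes were not analysed here, because the tables give no gene for a transcript.

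RNA was sequenced from brain punches of 196 samples, 98 from fluoxetine-treated (FT) and 98 from control (Sham) animals, in 25 regions. All animals were naïve male Long-Evans rats that were 2 months old when treatment began. The FT group received fluoxetine, a selective serotonin reuptake inhibitor, at 18 mg/kg in drinking water for 6 weeks, and the Sham group received water. Each sample pooled punches of 1 region from several animals, and the FT and Sham samples with the same replicate number (1, 3, 4 or 5) were processed in parallel and are called a pair. Punches of all regions came from the same sets of animals, so a pair recurs in every region, and 25 regions are not 25 independent tests. MPOA had 4 Sham and 2 FT samples and Arc had 2 Sham and 4 FT samples, which left pairs 4 and 5 in each. The other 23 regions had 4 samples per group. In whole punches, fewer cells of a type and less RNA per cell cannot be told apart.

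The regions are given by their labels. They are the prelimbic (PLC), infralimbic (ILC), cingulate (CGC) and insular cortex (InsularCortex), the shell and core of the nucleus accumbens (NaCshell, NaCcore), the lateral and medial septum (LS, MS) and the bed nucleus of the stria terminalis (BNST). Hypothalamic samples were the medial preoptic area (MPOA), paraventricular nucleus (PVN), lateral (LH) and ventromedial hypothalamus (VMH) and arcuate nucleus (Arc). The others were the mediodorsal thalamus (MDT), habenula (HB), basolateral (BLA) and centromedial amygdala (CMA), dorsal and ventral dentate gyrus (dorDG, venDG), ventral tegmental area (VTA), periaqueductal gray (PAG), raphe (Raphe), locus coeruleus (LC) and nucleus tractus solitarius (SNT).

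Kcna2 encodes a pore subunit of a voltage-gated potassium channel of the shaker family, which sits along axons beside the nodes of Ranvier and at the axon initial segment. There it opens near the firing threshold and holds back repetitive firing. Kcnk9 encodes an acid-sensitive potassium leak channel of the tandem-pore family, which is open at rest and helps to hold the membrane potential below threshold. Cacna1i encodes the pore of a T-type calcium channel, which opens at low voltage and carries the slow depolarisation under bursts of spikes, for which it is known in thalamic neurons.

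The libraries held a median of 11921178 reads on transcripts, and only 2 libraries were shallow. The Sham SNT sample of replicate 3 held 4586 reads, and the Sham ILC sample of replicate 3 held 543403. The libraries of replicate 3 stood apart in composition. Their 50 most abundant transcripts took a median of 67.4% of the reads in FT and 68.5% in Sham, against 28.2% to 37.5% in the groups of the other replicates. The 5 neuronal markers that could be matched by name (Tubb3, Nefh, Gad2, Slc17a6 and Pvalb) were all present in MPOA, Arc, Raphe and SNT. Levels are given as CPM, the read count scaled to library size, after trimmed-mean (TMM) scaling over all samples, which do not account for transcript length, so levels are not compared between the 3 genes.

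The 3 channels were measured with few reads. Across the Sham samples Kcna2 had a median of 20 reads per library in replicate 1, 26 in replicate 3, 74 in replicate 4 and 85 in replicate 5. Kcnk9 had 7, 45, 59 and 64 reads in the same order, and Cacna1i had 8, 11, 29 and 56. In the FT samples Kcna2 had a median of 12, 24, 13 and 11 reads, Kcnk9 3, 66, 7 and 3, and Cacna1i 2, 13, 9 and 7. Replicate 3 was thus the only number in which the FT libraries held about as many reads of the 3 channels as the Sham libraries.

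In Sham animals Kcna2 was found in every library except the shallow SNT library of replicate 3. Its mean level in the cortex was 4.71 ± 3.11 CPM in PLC, 5.38 ± 1.502 in ILC and 8.19 ± 8.51 in InsularCortex (SD, n = 4 each), and 11.4 ± 12.999 in CGC (n = 3). In the accumbens, septum and bed nucleus it was 1.64 ± 0.186 in LS, 2.58 ± 2.37 in BNST, 2.81 ± 1.24 in NaCcore, 3.06 ± 2.99 in MS and 3.36 ± 2.54 in NaCshell, the 5 of which lay in the lower part of the order. The hypothalamic means ran from 2.81 ± 0.646 in Arc (n = 2) through 3.21 ± 2.81 in MPOA, 4.07 ± 2.77 in VMH and 4.85 ± 3.88 in PVN to 7.24 ± 5.36 in LH.

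Kcna2 in the amygdala and dentate gyrus was at 3.92 ± 3.64 CPM in CMA, 4.001 ± 3.10 in BLA, 3.83 ± 2.77 in venDG and 4.99 ± 4.12 in dorDG. It was at 5.15 ± 3.38 in HB and 7.02 ± 6.62 in MDT. The midbrain and brainstem held 5.28 ± 3.74 CPM in LC, 5.57 ± 3.50 in VTA, 5.64 ± 3.20 in PAG, 7.57 ± 5.32 in SNT (n = 3) and 11.1 ± 4.39 in Raphe. Raphe was high in every replicate, with 6.97, 17.3, 10.2 and 9.74 CPM in replicates 1, 3, 4 and 5. LS had the lowest mean, with 1.47, 1.58, 1.60 and 1.91 CPM in these replicates. In replicate 1 it lay above the median of regions, its replicate 3 value is 2 reads, and in the blocked fit it did not differ from BNST beyond the spread (BNST minus LS -0.10, Q-val = 0.953). The CGC mean rested on replicate 3, at 26.3 CPM, against 2.78 and 5.04 in replicates 4 and 5.

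The Sham level of Kcna2 differed between regions (edgeR quasi-likelihood F test, replicate number as a block, Q-val = 1.2e-07). Such a difference was found for 75.4% of 17008 transcripts. Q-val stands for the Benjamini-Hochberg adjusted p over all transcripts tested, and a change was called where Q-val was 0.1 or less and the higher level exceeded the lower by 25% or more. Fold changes are given as log2FC. CGC, the region with the highest mean, exceeded LS, the lowest, by 1.49 on the log2 scale (SE 0.45, Q-val = 0.0119), a pair picked by its levels, in a comparison in which 26.2% of transcripts were called. Without replicate 3 the difference was 0.68 and was not called (Q-val = 0.472). Of 24 neighbouring regions in the order of mean levels, 22 did not differ beyond their spread. Raphe exceeded InsularCortex by 0.91 (SE 0.39, Q-val = 0.0625, 38.4% of transcripts called). CGC lay below Raphe in the blocked test (log2FC -0.96, SE 0.43, Q-val = 0.0779, 38.4% called), against the order of their means.

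Kcnk9 varied more from library to library. Its means in the cortex were 4.80 ± 5.45 CPM in PLC, 3.86 ± 4.53 in ILC, 5.96 ± 7.76 in InsularCortex and 5.25 ± 5.24 in CGC (SD, n as above). NaCcore held 3.85 ± 5.001, NaCshell 4.54 ± 5.78, LS 5.33 ± 6.01, MS 5.28 ± 6.30 and BNST 3.85 ± 4.28. The hypothalamus spanned a wide range, from 2.62 ± 2.74 CPM in PVN and 4.16 ± 0.686 in Arc to 6.74 ± 7.14 in LH, 7.03 ± 7.90 in MPOA and 8.73 ± 11.5 in VMH.

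The lowest mean of Kcnk9 was that of dorDG, at 1.61 ± 2.14 CPM, while venDG held 5.28 ± 7.31. BLA held 3.01 ± 3.89, CMA 7.65 ± 11.2, HB 3.29 ± 3.86 and MDT 5.65 ± 7.62. The highest mean was that of PAG, at 14.0 ± 18.9 CPM, followed in the brainstem by Raphe at 7.84 ± 6.02, LC at 7.36 ± 9.36, VTA at 7.30 ± 8.03 and SNT at 4.45 ± 3.64. In PAG the 4 samples held 3.87, 42.2, 6.67 and 3.36 CPM in replicates 1, 3, 4 and 5, and in dorDG they held 0.233, 4.76, 0.317 and 1.12. PAG was thus the higher of these regions within every replicate, while its mean was carried by replicate 3.

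Regions differed in Kcnk9 as well (F test as above, Q-val = 3.7e-05). PAG exceeded dorDG, again a pair picked by its levels, by 3.29 on the log2 scale (SE 0.61, Q-val = 9.0e-06, 35% of transcripts called). Of 24 neighbours in the order of means, 1 differed, ILC over NaCcore by 2.29 (SE 0.62, Q-val = 0.00834, 12.4% of transcripts called), and the other 23 did not differ beyond their spread. The Sham ILC sample of replicate 3, which is 1 of the shallow libraries, held 0 reads of Kcnk9. That of replicate 1 held 10.4 CPM, the highest of its replicate, in a library with 82.9% of its reads in the 50 most abundant transcripts and 21.8% ambiguous reads. The call of ILC over NaCcore thus includes a pair of libraries that stand apart.

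Cacna1i had its highest means in the cortex, accumbens and dentate gyrus. They were 4.99 ± 3.49 CPM in CGC, 4.95 ± 5.97 in PLC, 4.79 ± 6.23 in ILC and 4.07 ± 3.33 in InsularCortex. The means were 4.66 ± 4.48 in NaCcore, 4.40 ± 3.47 in NaCshell, 3.58 ± 3.135 in venDG and 3.28 ± 3.26 in dorDG. BLA with 2.33 ± 1.61, CMA with 2.32 ± 2.27, LS with 2.06 ± 1.63, BNST with 1.95 ± 1.221 and MS with 1.77 ± 1.62 had lower means, as had HB at 1.94 ± 1.33 and MDT at 1.33 ± 1.15.

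In the hypothalamus Cacna1i was at 1.97 ± 1.71 CPM in LH, 1.91 ± 1.44 in MPOA, 1.37 ± 0.835 in PVN and 1.28 ± 1.17 in VMH, and the 2 Arc samples both held 1.47. PAG held 2.02 ± 1.11, LC 1.81 ± 1.246, VTA 1.55 ± 0.755, SNT 1.06 ± 0.847 and Raphe 1.02 ± 0.322. Levels differed between regions (F test as above, Q-val = 6.9e-04). CGC exceeded Raphe, again a pair picked by its levels, by 1.48 on the log2 scale (SE 0.65, Q-val = 0.0721, 38.4% of transcripts called). This call was lost without replicate 3 (1.09, Q-val = 0.346) and without replicate 5 (1.29, Q-val = 0.256). None of 24 neighbouring regions in the order of means differed beyond their spread at this threshold.

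**Figure D1:**
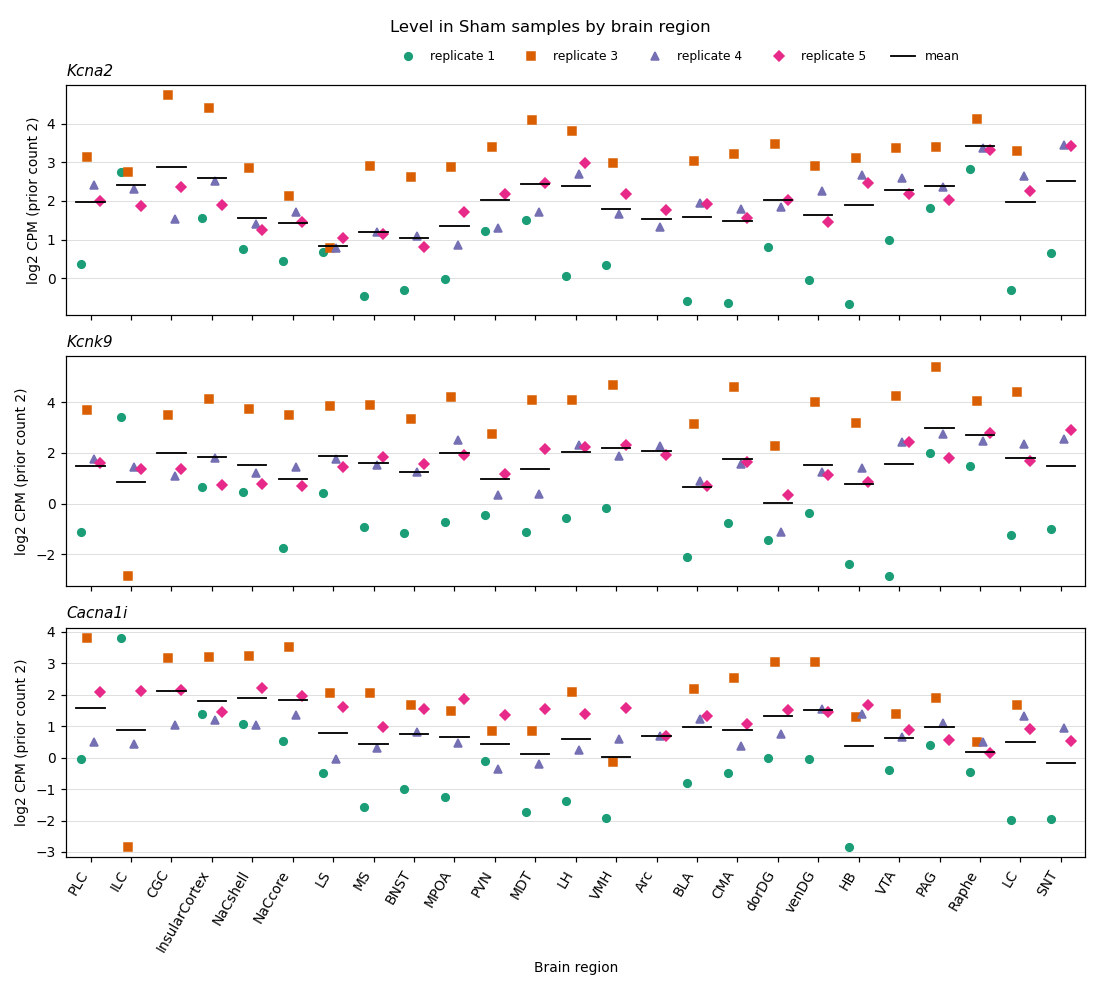
Level of each channel in the Sham samples, with brain regions on the x axis and log2 CPM on the y axis; points are samples, coloured by replicate number, and black lines are means. The Sham samples of SNT replicate 3 and CGC replicate 1 are not drawn. Replicate 3 lies above the other numbers in most regions, with medians of 8.64 CPM for Kcna2, 14.5 for Kcnk9 and 3.96 for Cacna1i.

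The replicate numbers themselves differed in the level of all 3 channels. The median Sham level of Kcna2 over regions was 1.24 CPM in replicate 1, 8.64 in replicate 3, 3.42 in replicate 4 and 3.89 in replicate 5. For Kcnk9 the medians were 0.446, 14.5, 2.83 and 2.88 CPM, and for Cacna1i they were 0.574, 3.96, 1.47 and 2.61. Replicate 3 was the highest and replicate 1 the lowest for each gene in Sham. The replicate number entered the tests as a block, as in the study's own methods, which treat it as a batch.

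The regional profiles of the 3 channels had little in common. Over the mean Sham log2 CPM of 25 regions, Pearson's r was 0.25 between Kcna2 and Kcnk9, -0.06 between Kcna2 and Cacna1i and -0.14 between Kcnk9 and Cacna1i. These values describe regions that share libraries and depth. Of 1845 transcripts named in the study's list, the profiles most like Kcna2 were those of Nap1l2 (r = 0.75), Rnd1 (0.75) and Syngr1 (0.74). Those most like Kcnk9 were Slc38a1, a glutamine transporter (0.74), Stat5b, a transcription factor of cytokine signalling (0.67), and Cdh18, a cadherin (0.65). Those most like Cacna1i were Kctd1 (0.85), Bai1 (0.83) and Chrm1, a muscarinic acetylcholine receptor (0.81).

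FT was then compared with Sham in each region, to ask where fluoxetine changed these channels. With the replicate number as a block, all 3 transcripts had a lower fitted level in FT in every region in which they could be fitted. For Kcna2 this held in 25 of 25 regions, where the median log2FC was -1.42 and values ran from -2.92 in ILC to -0.45 in LC. For Kcnk9 it held in 24 of 24 regions (median -1.58, from -4.42 in MPOA to -0.90 in MS), and its reads in dorDG were too few to be fitted. For Cacna1i it held in 19 of 19 (median -1.38, from -2.20 in MPOA to -0.58 in HB). This transcript was too low to be fitted in ILC, LC, Raphe, SNT, VMH and VTA. When the replicate number was ignored, Kcnk9 was below 0 in 12 of 24 regions, with a median log2FC of 0.01, while Kcna2 stayed below 0 in 25 of 25 and Cacna1i in 19 of 19. With all CGC samples kept, Kcnk9 in CGC was at 0.04. Without replicate 4, Kcna2 was below 0 in 22 of 23 regions and Cacna1i in 16 of 17, and without replicate 5 Cacna1i was below 0 in 14 of 16. Among transcripts fitted in as many regions, a negative log2FC in every region was found for 2.89% of 11365 with 25 regions, 8.01% of 362 with 24 and 6.72% of 134 with 19.

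Few of these differences passed the test in a single region. Kcna2 was called lower in 4 of 25 regions, MPOA, Arc, Raphe and SNT, Kcnk9 in 2 of 24, MPOA and Arc, and Cacna1i in 1 of 19, MPOA. None was called higher in any region. The share of all transcripts called lower in FT was 4.74% in MPOA, 10.8% in Arc, 3.51% in Raphe and 2.36% in SNT, and 0.913% over all tests in the 25 regions. In each of the other 21 regions it was 0.152% or less. An unadjusted edgeR p under 0.05 was reached by Kcna2 in 19 regions, Kcnk9 in 14 and Cacna1i in 11. Many other transcripts reached it too, in either direction. Their number ran from 935 of 13011 in ILC to 4767 of 14464 in Arc, and was 2728 of 14886 in MPOA.

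**Figure D2:**
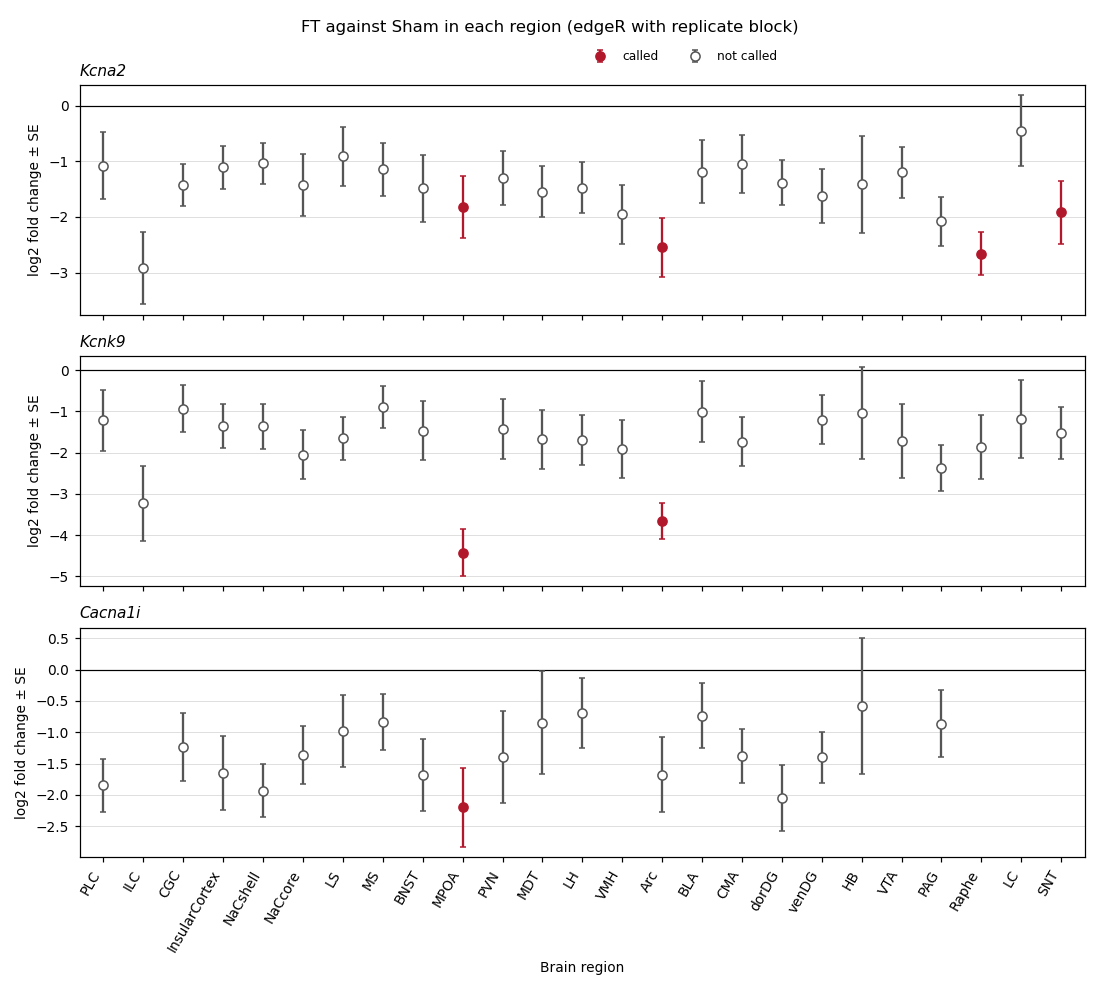
Log2FC of FT against Sham for each channel, with brain regions on the x axis and log2FC on the y axis; bars are standard errors of the edgeR fit with the replicate number as a block, and filled points are called. All fitted values lie below 0, and the called values are those of MPOA for all 3 channels, of Arc for Kcna2 and Kcnk9, and of Raphe and SNT for Kcna2.

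Kcnk9 in MPOA showed the largest difference of the 3 channels in any region. The Sham samples of replicates 4 and 5 held 146 and 67 reads, or 5.58 and 3.62 CPM, and the paired FT samples held 8 and 2 reads, or 0.420 and 0.0668 CPM. The Sham samples without an FT partner held 10 reads (0.470 CPM) in replicate 1 and 77 reads (18.4 CPM) in replicate 3. The FT samples lay below all 4 Sham samples, and the Sham sample of replicate 1 lay close to the higher FT sample. The log2FC was -4.42 (SE 0.56, Q-val = 6.3e-08, lower in 2 of 2 pairs), and DESeq2 with the same block gave -4.51 (Q-val = 3.1e-07).

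Kcnk9 in Arc was also lower in FT. The Sham samples held 79 reads (4.64 CPM) in replicate 4 and 90 reads (3.67 CPM) in replicate 5, and the FT samples of these numbers held 10 reads (0.486 CPM) and 2 reads (0.144 CPM). The FT samples without a Sham partner held 4 reads (0.349 CPM) in replicate 1 and 87 reads (34.7 CPM) in replicate 3, so that the FT group overlapped the Sham group through replicate 3. The log2FC from the pairs was -3.65 (SE 0.43, Q-val = 0.0152, lower in 2 of 2 pairs), and DESeq2 gave -3.77 (Q-val = 5.8e-06). When the replicate number was ignored, the log2FC was 1.08 (Q-val = 0.843), with the unpaired FT sample of replicate 3 among the FT samples. Both Sham samples lay above the FT samples of replicates 4 and 5, whichever way these are paired. The direction in Arc thus rests on setting the unpaired FT samples aside, which the block does. Same-numbered FT and Sham samples of Arc did not deviate together (r = -0.11). With the 2 Arc pairs crossed, a fit added after the data were seen, the log2FC was -3.56.

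Kcna2 in Raphe was the called difference with the most pairs behind it. The Sham samples held 119, 68, 122 and 121 reads in replicates 1, 3, 4 and 5, or 6.97, 17.3, 10.2 and 9.74 CPM. The FT samples held 15, 16, 11 and 9 reads, or 0.946, 7.21, 1.32 and 0.833 CPM. FT was lower within each of the 4 pairs, and across pairs the FT sample of replicate 3 lay just above the Sham sample of replicate 1. The log2FC was -2.66 (SE 0.39, Q-val = 0.0426), and DESeq2 gave -2.66 (Q-val = 1.1e-06). Without replicate 4 the call was lost (log2FC -2.56, Q-val = 0.194), and ignoring the replicate number also ended it (Q-val = 1.00).

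Kcna2 was also lower in Arc and MPOA, each with 2 pairs. In Arc, pair 4 went from 40 reads in Sham (2.35 CPM) to 14 in FT (0.681 CPM), and pair 5 from 80 (3.26 CPM) to 3 (0.216 CPM). The unpaired FT samples of replicates 1 and 3 held 1.66 and 4.38 CPM, the latter above both Sham samples. The log2FC was -2.55 (SE 0.53, Q-val = 0.0361), and -0.90 (Q-val = 0.729) when the replicate number was ignored. With the Arc pairs crossed the log2FC was -2.60. In MPOA the Sham samples held 0.846, 7.19, 1.68 and 3.14 CPM in replicates 1, 3, 4 and 5, and the FT samples 0.683 and 0.635 CPM in replicates 4 and 5, below all Sham samples. The log2FC in MPOA was -1.83 (SE 0.56, Q-val = 0.0323), which DESeq2 did not call (Q-val = 0.213). DESeq2 gave no adjusted p for Kcna2 in Arc.

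Kcna2 in SNT was split between pairs. Its reads rose from 24 in Sham to 51 in FT in replicate 1 (1.44 and 2.31 CPM), and fell from 122 to 10 in replicate 4 (10.8 and 1.402 CPM) and from 139 to 9 in replicate 5 (10.5 and 0.719 CPM). In replicate 3 the Sham library of 4586 reads held 0 reads of Kcna2 and the FT library 24. The log2FC was -1.92 (SE 0.57, Q-val = 0.0818) with that shallow library in the fit. Without replicate 1 it was -3.25 and called (Q-val = 1.3e-30), in a fit that still held the shallow library beside pairs 4 and 5. Pairs 4 and 5 alone gave -3.43 (Q-val = 1.3e-05). Kcna2 in SNT was not called without replicate 3 (-2.03, Q-val = 0.422), replicate 4 (-1.37, Q-val = 0.369) or replicate 5 (-0.97, Q-val = 0.561). FT was lower in 2 of the 3 pairs with a usable library, and the groups overlapped.

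For Cacna1i in MPOA, pair 4 went from 32 reads in Sham (1.223 CPM) to 7 in FT (0.368 CPM), and pair 5 from 65 (3.51 CPM) to 18 (0.601 CPM). The unpaired Sham samples held 6 reads (0.282 CPM) in replicate 1 and 11 reads (2.64 CPM) in replicate 3. The groups overlapped, since the Sham sample of replicate 1 lay below both FT samples. The log2FC was -2.20 (SE 0.63, Q-val = 0.0206, lower in 2 of 2 pairs), and DESeq2 did not call it (Q-val = 0.227).

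**Figure D3:**
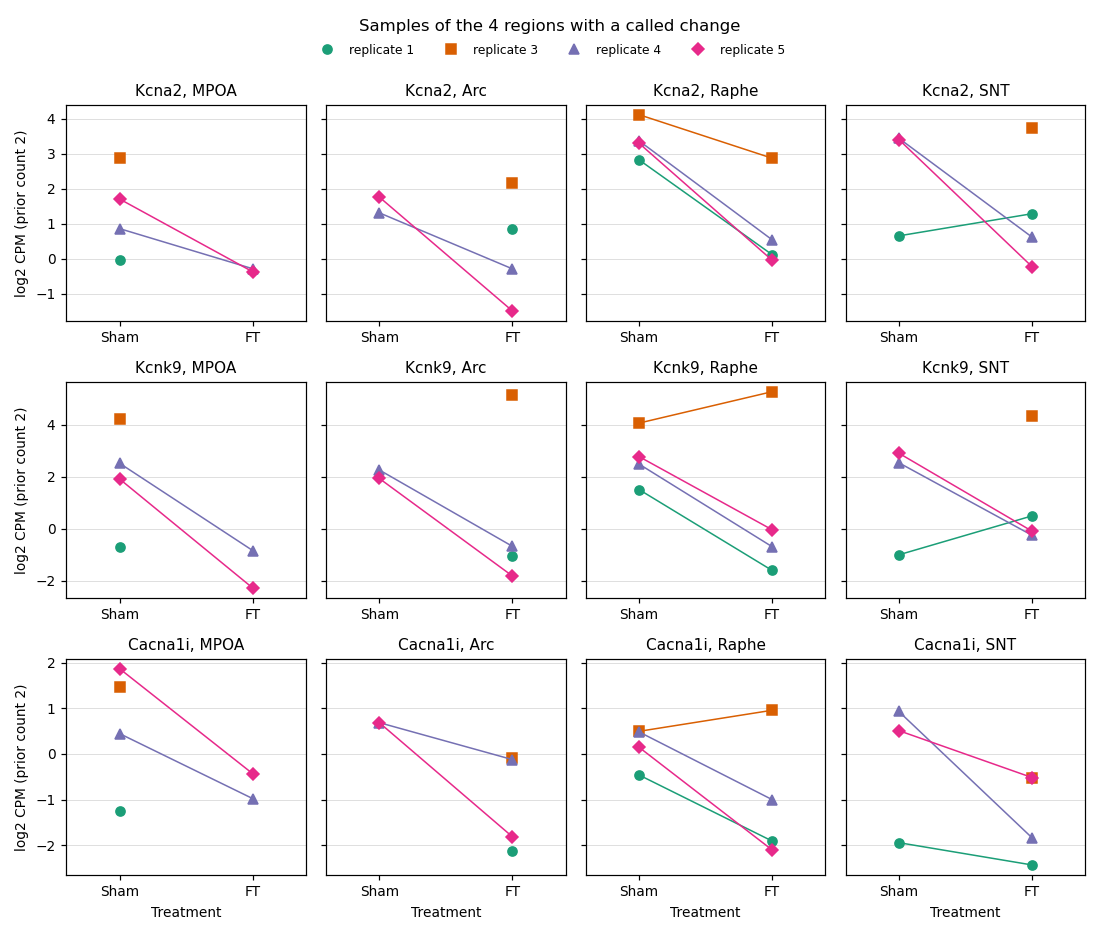
Samples of the 4 regions with a called change, with treatment on the x axis and log2 CPM on the y axis; each point is a sample, coloured by replicate number, and lines join the FT and Sham samples of a pair. In MPOA and Arc only pairs 4 and 5 are complete. The lines of pairs 4 and 5 go down from Sham to FT in each panel, and lines go up in pair 3 of Raphe for Kcnk9 and Cacna1i and in pair 1 of SNT for Kcna2 and Kcnk9.

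In ILC Kcna2 had its largest negative log2FC, -2.92 (SE 0.65), which edgeR did not call (Q-val = 0.263) and DESeq2 did (log2FC -2.97, Q-val = 0.00737). The Sham samples held 28, 1, 100 and 71 reads in replicates 1, 3, 4 and 5, or 6.64, 6.57, 4.79 and 3.53 CPM, and the FT samples held 8, 18, 6 and 5 reads, or 0.718, 7.54, 0.400 and 0.281 CPM. FT was lower in pairs 1, 4 and 5. In pair 3 the single Sham read comes from the shallow library. In pair 1 the Sham library had 82.9% of its reads in the 50 most abundant transcripts and 21.8% ambiguous reads, against 42.0% and 6.503% in its FT partner. Without replicate 1 edgeR called Kcna2 lower in ILC (log2FC -2.79, Q-val = 0.00158).

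With DESeq2 the number of regions called lower was 7 for Kcna2 (CGC, ILC, LH, PAG, Raphe, VMH and dorDG), 7 for Kcnk9 (Arc, LH, MPOA, NaCcore, NaCshell, PAG and VMH) and 4 for Cacna1i (NaCcore, NaCshell, PLC and dorDG). DESeq2 called 1.77% of all tests lower. Without the filter on low counts edgeR called Kcna2 in 12 regions, Kcnk9 in 14 and Cacna1i in 8, beside 1.5% of all tests. By region the share called lower by DESeq2 was 0.453% in CGC, 0.577% in ILC, 0.692% in PLC, 1.08% in PAG, 1.49% in VMH, 1.52% in dorDG, 1.89% in MPOA, 2.11% in LH, 3.31% in Arc, 3.5% in NaCcore, 3.69% in NaCshell and 4.82% in Raphe. DESeq2 gave an adjusted p to these transcripts in 17, 18 and 11 regions, since it sets aside low means and outlying counts. PAG, LH and VMH were called by DESeq2 for both potassium channels. In LH and VMH Kcnk9 was higher in FT in pair 3, by 0.45 and 0.31 on the log2 scale, and in PAG both channels were lower in 4 of 4 pairs. In PAG Kcnk9 held 3.87, 42.2, 6.67 and 3.36 CPM in Sham and 0.672, 29.5, 0.416 and 0.236 CPM in FT (edgeR log2FC -2.38, SE 0.56, Q-val = 0.253). Kcna2 in PAG held 3.36, 10.3, 4.95 and 3.92 CPM in Sham and 0.373, 6.84, 0.950 and 0.787 CPM in FT (log2FC -2.08, SE 0.44, Q-val = 0.253). For Cacna1i the largest value that edgeR did not call, with 4 pairs lower, was that of dorDG, which DESeq2 called, with a log2FC of -2.05 (SE 0.52, Q-val = 0.238).

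The size of the difference depended on the pair. In pair 5, FT was below Sham in 25 of 25 regions for each of the 3 channels, and by at least 1 on the log2 scale in all 25. The median log2 ratio of FT to Sham in pair 5 was -2.30 for Kcna2 (from -3.63 in SNT to -1.07 in LC), -2.90 for Kcnk9 (from -4.67 in VTA to -1.45 in NaCshell) and -2.35 for Cacna1i (from -3.16 in VMH to -1.03 in SNT). The FT and Sham samples of pair 5 did not overlap for Kcnk9, whose highest FT sample held 0.833 CPM and lowest Sham sample 1.12 CPM. They did not overlap for Cacna1i either, at 0.937 and 0.966 CPM. For Kcna2, 22 of 25 Sham samples lay above the highest FT sample. The share of all transcripts with such a separation, or lower in all regions of pair 5, was not counted. These counts therefore have no yardstick, and the regions of a pair share the same animals. Of all transcripts, 49.4% had a mean log2 ratio over regions below 0 in pair 5.

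Pair 4 gave a similar picture for the potassium channels. Kcna2 was lower in FT in 25 of 25 regions, with a median log2 ratio of -1.75 (from -3.32 in HB to -0.97 in MDT). Kcnk9 was lower in 25 of 25, with a median of -2.40 (from -3.80 in PLC to -1.05 in MDT). Cacna1i was lower in 23 of 25, with a median of -1.08, and was highest relative to Sham in LH, at 0.24. In dorDG the FT sample of replicate 4 held 0 reads of Kcnk9, and its Sham partner held 15. The share of all transcripts lower in all regions of pair 4 was not counted either, and 47.0% had a mean log2 ratio below 0.

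Pairs 1 and 3 differed from these. In pair 1, FT was lower in 16 of 22 regions for Kcna2 (median -0.81), in 16 of 22 for Kcnk9 (median -0.88) and in 19 of 22 for Cacna1i (median -1.27). The ratio of Kcnk9 ran from -5.05 in ILC, where the Sham library is the one with 82.9% of reads in 50 transcripts, to 1.56 in HB, where FT held 8 reads and Sham 1. In pair 3, Kcna2 was lower in 14 of 22 regions, in 1 of them by at least 1, and the median was -0.26. Kcnk9 was lower in 3 of 22 regions, with a median of 0.44 in favour of FT, and Cacna1i was lower in 13 of 22, with a median of -0.21. The extreme values of pair 3, 6.19 for Kcnk9 and 3.70 for Cacna1i, were those of ILC, where the shallow Sham library held no read of either gene.

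**Figure D4:**
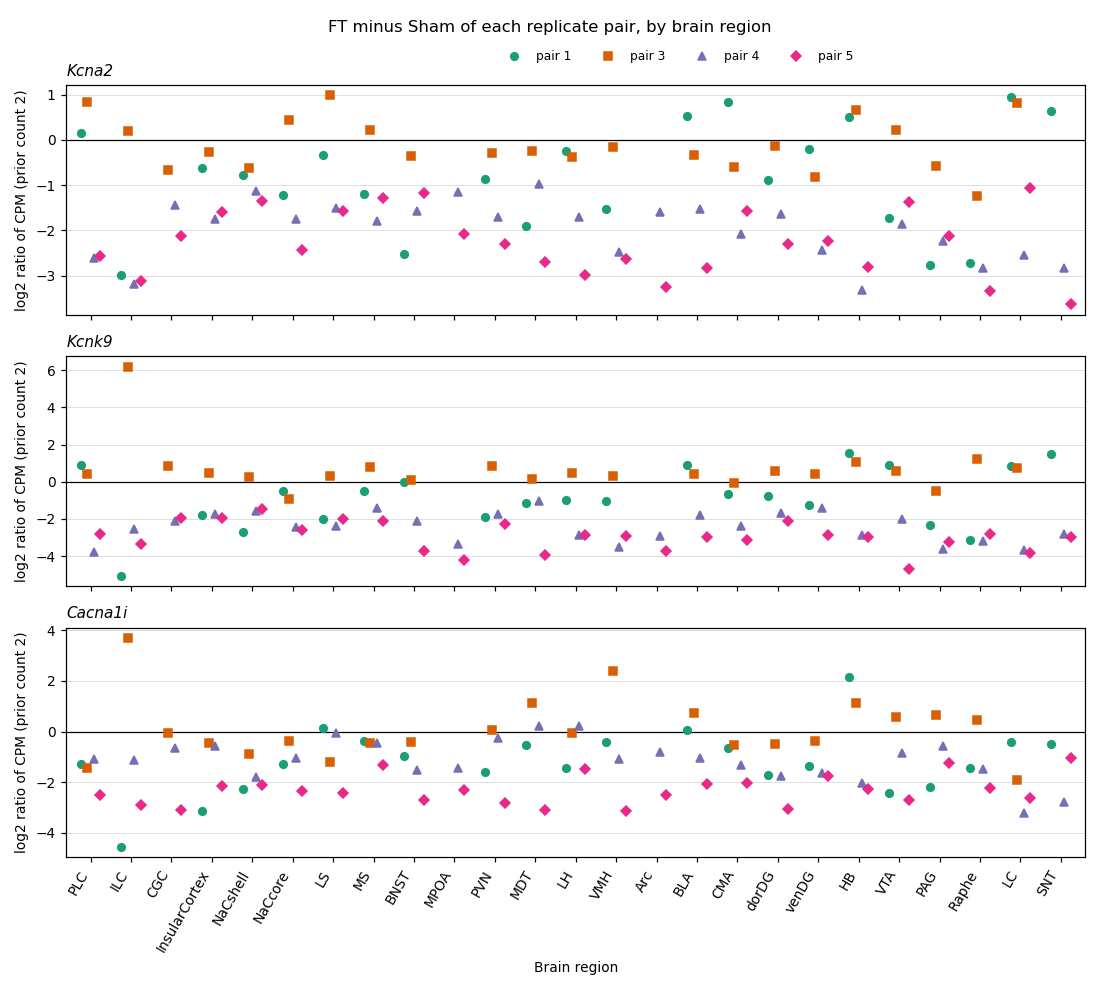
FT minus Sham on the log2 CPM scale for each replicate pair, with brain regions on the x axis and the log2 ratio on the y axis, for each channel; CGC pair 1 and SNT pair 3 are left out. All values of pair 5 lie below 0, as do those of pair 4 for Kcna2 and Kcnk9, while pair 3 of Kcnk9 lies above 0 in 19 of 22 regions.

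MPOA and Arc, the regions in which Kcnk9 was called, are the regions that hold pairs 4 and 5 alone. A fit restricted to these pairs in every region, chosen after the data were seen, called Kcna2 lower in 22 of 25 regions, Kcnk9 in 23 of 24 and Cacna1i in 17 of 25. It called 6.54% of all tests lower. In that fit Kcnk9 had a median log2FC of -3.16, and its largest value was -4.54 in LC. Neither MPOA nor Arc could be fitted without replicate 4 or 5, so their calls were lost by design in those fits. In the main fits they held 706 and 1563 of the 3059 calls lower over all tests. Without replicate 4 edgeR called none of the 3 channels in the regions that could be fitted (0.0325% of all tests called lower). These were 23 regions for Kcna2, 23 for Kcnk9 and 17 for Cacna1i. An unadjusted edgeR p under 0.05 was reached in 8, 3 and 8 of them, without a share of all transcripts beside it. Without replicate 5 the only call was that of Kcna2 in Raphe (0.0843% of all tests). Without replicate 3, Kcna2 was called in 5 of 25 regions fitted, Kcnk9 in 6 of 15 and Cacna1i in 4 of 20, beside 1.07% of all tests.

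The composition of the libraries moved with the pairs as well. The share of reads outside annotated transcripts was lower in FT than in Sham in pair 1 (median difference -3.77 percentage points) and in pair 5 (-2.14), and higher in pair 4 (4.97), and differed by -0.06 in pair 3. The share of reads in the 50 most abundant transcripts was lower in FT by a median of -4.65 points in pair 1, -1.70 in pair 3, -3.13 in pair 4 and -0.14 in pair 5. The part of library composition in the result was not tested.

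Over regions, each pair was reduced to 1 value, the mean log2 ratio of FT to Sham in the 21 regions with 4 usable pairs, and the 4 values were tested with limma. Kcna2 had -0.92, -0.05, -2.02 and -2.18 in pairs 1, 3, 4 and 5, with a mean of -1.29 (SE 0.53, Q-val = 0.267 from limma). Kcnk9 had -0.98, 0.67, -2.36 and -2.90, with a mean of -1.39 (SE 0.69, Q-val = 0.305 from limma). Cacna1i had -1.21, 0.12, -1.07 and -2.36, with a mean of -1.13 (SE 0.46, Q-val = 0.268 from limma). Pair 3 of ILC, with its shallow Sham library, is part of these means. With ILC left out, which was chosen after the data were seen, pair 3 was at -0.07 for Kcna2, 0.40 for Kcnk9 and -0.05 for Cacna1i, so that Cacna1i changed sign in that pair, and the means over pairs were -1.25, -1.40 and -1.12. Leaving out 1 pair moved the mean of Kcnk9 between -2.17 (without replicate 3) and -0.89 (without replicate 5), and that of Cacna1i between -1.62 and -0.72. None passed the threshold, and limma called 0 of 13335 transcripts (0%), while 2424 had an unadjusted p under 0.05. With the counts summed over regions and fitted with edgeR, 1 of 19230 transcripts was called, and it was none of the 3. With 4 pairs, an exact test on signs cannot give a two-sided p below 0.125.

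In pairs 1, 4 and 5 the 3 channels stood near the lower end of all transcripts. They were taken from the study's list of transcripts that responded in these same samples, so a low rank is not independent evidence. In pair 4, 0.165% of the 13335 transcripts had a lower mean log2 ratio than Kcna2 and 0.112% a lower one than Kcnk9, and in pair 5 these shares were 0.300% and 0.0525%. Cacna1i had 1.81% of transcripts below it in pair 4 and 0.217% in pair 5. In pair 1 the shares were 1.46% for Kcna2, 1.03% for Kcnk9 and 0.345% for Cacna1i. In pair 3 they were 36.6%, 96.9% and 56.2%, which places all 3 inside the bulk of transcripts and Kcnk9 toward its upper end. The median of all transcripts lay between -0.03 and 0.07 in the 4 pairs.

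The response was not shown to differ between regions. In a joint edgeR fit of 188 samples with a block for each pair and a treatment effect for each replicate number, the test of the treatment by region terms gave Q-val = 0.365 for Kcna2 (F = 1.52), 0.761 for Kcnk9 (F = 1.04) and 0.799 for Cacna1i (F = 0.99). It found a difference for 3.31% of 17292 transcripts. With pairs 4 and 5 alone these values were 0.262, 0.478 and 0.785. The larger log2FC of Kcnk9 in MPOA than elsewhere is therefore not shown to be particular to MPOA.

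Other channels of the same families were taken from lists of channel symbols, of which 18 besides the 3 members could be matched to a transcript name. All matched names come from transcripts that the study lists as responsive, so these counts have no independent direction. Of the 18, edgeR called 11 lower in at least 1 region, 3 higher and 4 in none, where 12.9% of 15809 transcripts were called lower and 14.3% higher in at least 1 region. DESeq2 called 12 lower and 6 higher, against 14.6% and 16.9% of 14276 transcripts. Over regions, 13 of 18 had a negative mean log2 ratio, with a median of -0.49 against 0.01 for all transcripts tested, and none was called by limma, with 9 at an unadjusted p under 0.05.

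Among the partners of Kcna2, genes of the same channel complex went in different directions. Dlg4, a scaffold of the postsynaptic density, was called lower in 3 regions, with a log2FC of -1.32 in Arc (SE 0.20, Q-val = 0.0199), -1.63 in MPOA and -1.46 in SNT. Kcnab3, an auxiliary beta subunit of shaker channels, was called higher in Arc, by 1.37 (SE 0.35, Q-val = 0.0512), and in MPOA, by 1.34 (SE 0.33, Q-val = 0.00481), and had a positive log2FC in all 25 regions. The other 2 matched partners were each called lower by edgeR in Arc, and by DESeq2 in 10 and 2 other regions. In Arc 10.8% of all transcripts were called lower and 13.7% higher. In MPOA these shares were 4.74% and 4.85%. By pair, Kcnab3 had mean log2 ratios of 0.38, 0.37, 0.97 and 0.71 in pairs 1, 3, 4 and 5. It was thus higher in FT in pair 3 too, where Kcna2 had -0.05.

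Kcnk15, the other tandem-pore channel of the list and a close relative of Kcnk9, was called higher in Arc, by 1.37 (SE 0.22, Q-val = 0.0222). It was 1 of 5 other channels called in a single region, and was named after its values were seen because of its family. Its mean log2 ratios were 0.49, 0.28, 0.19 and 0.98 in pairs 1, 3, 4 and 5, opposite in sign to Kcnk9 in pairs 1, 4 and 5. Cacna1h, the other T-type channel that could be matched, was called in no region by edgeR. Its values by pair were -0.74, 0.37, -0.37 and -1.08, with a mean of -0.45 (SE 0.25, Q-val = 0.330 from limma). Cacna1h is outside the rule for named genes and was named after its values were seen.

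Among other potassium channels, Kcnj10, the inward rectifier that astrocytes use to clear potassium, had the pair values most like those of Kcna2 and Kcnk9. They were -0.98, 0.10, -2.14 and -2.61 in pairs 1, 3, 4 and 5, and it was called lower in Arc (log2FC -2.66, SE 0.34, Q-val = 0.0159), MPOA (-2.88, SE 0.54, Q-val = 1.3e-04) and Raphe (-2.62, SE 0.40, Q-val = 0.0426). Kcng4, a modifier subunit of other voltage-gated potassium channels, was called higher in Arc (1.44), MPOA (1.16) and SNT (1.04). Its rise was found in pairs 4 and 5, at 0.87 and 1.47, and not in pairs 1 and 3, at 0.08 and -0.08.

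Subunits of sodium, calcium and pacemaker channels were called mostly lower. Scn8a, a sodium channel of the axon initial segment, was called lower in MPOA (log2FC -1.44), Raphe (-1.44) and SNT (-1.13), and Scn2b, a sodium channel beta subunit, in Arc (-1.97) and MPOA (-1.004). Of the calcium channel beta subunits, Cacnb3 was called lower in Arc (-0.92), MPOA (-1.59) and SNT (-0.89), and Cacnb4 in Arc (-0.61) and MPOA (-1.10). Hcn2, a pacemaker channel, was called lower in MPOA (-2.24, SE 0.41, Q-val = 8.9e-05) and SNT (-1.17).

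**Figure D5:**
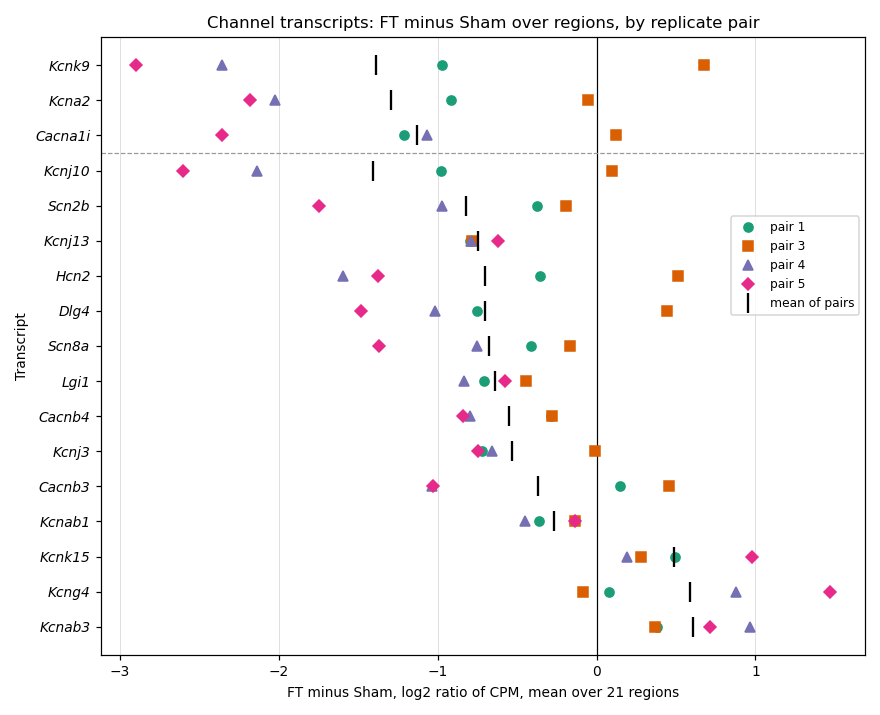
FT minus Sham over regions for the 3 members (above the dashed line) and the other channel transcripts that edgeR called in at least 1 region, as the mean log2 ratio over 21 regions on the x axis, by replicate pair; black ticks are means of the 4 pairs. Pairs 4 and 5 of the 3 members lie between -2.90 and -1.07, and Kcng4, Kcnab3 and Kcnk15 lie to the right of 0 in their means.

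Markers of cell types were summed in the 4 regions with a called channel, using the markers that could be matched by name, none of which was at 0 in these regions. The matched names come from transcripts that the study lists as responsive, so calls among them have no independent direction. The 5 neuronal markers summed to 399 to 1064 CPM in the 4 Sham samples of MPOA and 321 to 380 in the 2 FT samples, and to 508 to 639 in the 2 Sham samples of Arc and 362 to 730 in the 4 FT samples. In Raphe they summed to 1064 to 3478 CPM in Sham and 963 to 2676 in FT, and in SNT to 1748 to 2431 in Sham and 1217 to 1941 in FT. Of the neuronal markers, edgeR called 2 lower and 1 higher in Arc, 2 lower in Raphe and none in MPOA and SNT. Of the 4 astrocyte markers it called 3 lower and 1 higher in Arc, 2 lower and 1 higher in MPOA, 2 lower in Raphe and none in SNT. Of the 3 oligodendrocyte markers it called 2 lower in Arc, and of the 2 microglial markers 1 lower in Arc. Ttr, a choroid plexus marker, was called higher in Arc. Of all transcripts, 10.8% were called lower and 13.7% higher in Arc, and 4.74% and 4.85% in MPOA. These shares were 3.51% and 3.08% in Raphe and 2.36% and 1.8% in SNT.

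The 4 astrocyte markers, of which Kcnj10 is 1, summed to 521 to 532 CPM in the Sham samples of Arc and 370 to 391 in the FT samples, and to 273 to 418 in Sham and 329 to 335 in FT in MPOA. The 3 oligodendrocyte markers summed to 317 to 340 CPM in Sham and 153 to 226 in FT in Arc, and to 181 to 396 in Sham and 230 to 272 in FT in MPOA. Over regions, the mean log2 ratio of the neuronal list was 0.05, -0.03, -0.22 and -0.26 in pairs 1, 3, 4 and 5, and that of the astrocyte list was -0.19, 0.15, -0.71 and -0.96. Astrocyte markers went both ways in pairs 4 and 5, with -2.14 and -2.61 for Kcnj10, -1.55 and -1.88 for Slc6a11, -0.65 and -0.33 for Gja1 and 1.47 and 0.98 for Slc7a10. The oligodendrocyte list had -0.18, -0.27, -0.60 and -0.25, the microglial list 0.20, 0.40, -0.18 and -0.33, and Ttr -0.57, -0.91, -1.98 and -1.17. The part of these cell types in the lower values of the 3 channels was not tested.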

How the data were processed

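RNA of 196 punch samples was sequenced after a stranded total RNA preparation. The authors deposited raw read counts per Ensembl transcript, made with STAR and HTSeq on rn5 per the labels; versions and the strand setting are not given in the sources used here. HTSeq's 5 summary lines were left out of library sizes: reads outside annotated transcripts were a median of 21.9% to 47.5% by replicate and treatment, and ambiguous reads a median of 5.52% over all samples. Reads shared with other transcripts of a gene cannot be placed by such counting.

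Regional fits used the samples of 1 region at a time in edgeR 4.0.16 (quasi-likelihood test, TMM, filterByExpr at its defaults of 10 reads per sample and 15 in total), with the replicate number as a block. Calls needed a 25% difference and a Benjamini-Hochberg value, adjusted over all transcripts tested, no higher than 0.1. The replicate 1 pair of CGC was left out. The study removed outlying CGC replicates without numbering them in its methods, so the choice of this pair was made here; its FT library had 83.3% of reads in the 50 most abundant transcripts. The Sham SNT library of 4586 reads stayed in the SNT fit and was left out of levels and pair counts. Pairing comes from the study's methods, and same-numbered samples deviated together, with a median r of 0.66 over regions and every r above 0.1 in the 23 regions with 3 or 4 pairs. In the regions with 2 pairs, r was 0.20 in MPOA and -0.11 in Arc, so the pairing is not borne out in Arc. Values over regions were tested with limma 3.58.1 (log2 CPM, prior count 2), and differences between regions in joint edgeR fits. Alternatives were DESeq2 1.42.0, no block, median-ratio size factors, no low-count filter, and leaving out each replicate. R 4.3.3 and Python 3.11.15 were used. On simulated data for 1 region, edgeR recovered 87 of 89 transcripts changed by 2 on the log2 scale and 23 of 94 changed by 1. The simulation followed PLC, with 4 pairs, the same change in each pair and transcripts of all levels past the filter. It does not give the recovery for transcripts with as few reads as the 3 channels, or for regions with 2 pairs. Samples of a group are pools of animals. In the blocked regional fits and over regions, p-values measure the spread of the FT to Sham difference between pairs. With only 2 pairs in MPOA and Arc, little of this spread is seen for 1 transcript. The p-values there lean on the variance that edgeR shares across transcripts. In the Sham tests and the joint fit, p-values measure the spread left between libraries of the same pools after the block, not the spread between pools.

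Genes named are the 3 members, at most 10 listed channels by number of regions called, and the 3 transcripts with the most similar Sham profile for each member. A listed channel is counted but not reported by name here. The members and the lists were chosen with earlier results of these data known.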

Additional observations from a re-analysis of the deposited data

Results flagged for a closer look

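The highest or lowest sample of each group of 4 was compared with the other 3 by Dixon's ratio at the 95% level, for each channel, region and treatment. Of 141 groups tested, 66 had a sample that stood apart from the others. Chance gives about 1 in 20 for independent groups, but these groups share libraries and pools of animals, so that share is no yardstick here. The CGC samples of replicate 1, left out of the main fits, were kept. In all 66 the sample that stood apart was that of replicate 3, and it was the highest of its group. The values below are CPM of that sample.

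In Sham, the replicate 3 sample of Kcna2 held 26.3 in CGC and 20.8 in InsularCortex. In FT, the replicate 3 sample of Kcna2 held 6.39 in BLA, 4.68 in BNST, 5.97 in CMA, 13.5 in HB, 7.54 in ILC, 17.3 in InsularCortex, 17.1 in LC, 10.7 in LH, 14.2 in MDT, 8.68 in MS, 5.72 in NaCcore, 4.62 in NaCshell, 6.84 in PAG, 15.4 in PLC, 8.59 in PVN, 7.21 in Raphe, 13.3 in SNT, 6.93 in VMH, 12 in VTA, 10.04 in dorDG and 4.07 in venDG.

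In Sham, the replicate 3 sample of Kcnk9 held 24.4 in CMA, 17.5 in InsularCortex, 14.2 in LS, 13.2 in NaCshell, 42.2 in PAG, 25.8 in VMH and 16.2 in venDG. In FT, the replicate 3 sample of Kcnk9 held 34.7 in Arc, 11.8 in BLA, 10.9 in BNST, 22.8 in CMA, 18.8 in HB, 10.05 in ILC, 24.5 in InsularCortex, 35.7 in LC, 23.3 in LH, 17.9 in LS, 18.3 in MDT, 25 in MS, 5.72 in NaCcore, 15.7 in NaCshell, 29.5 in PAG, 17.2 in PLC, 12 in PVN, 38.3 in Raphe, 19.97 in SNT, 32.1 in VMH, 28.4 in VTA, 7.17 in dorDG and 21.9 in venDG.

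In Sham, the replicate 3 sample of Cacna1i held 9.06 in InsularCortex. In FT, the replicate 3 sample of Cacna1i held 7.39 in BLA, 2.23 in BNST, 3.8 in CMA, 5.26 in HB, 1.67 in ILC, 8.58 in NaCcore, 4.89 in NaCshell, 4.98 in PLC, 1.8 in Raphe, 4.62 in VMH, 5.74 in dorDG and 6.26 in venDG.

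The libraries of replicate 3 also had the largest share of reads in their 50 most abundant transcripts (median 68.5% in Sham and 67.4% in FT). The part of that share in these levels was not tested.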

How the results depend on the processing

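The number of regions called lower was 4 for Kcna2, 2 for Kcnk9 and 1 for Cacna1i, and depended on the fit. It was 7, 7 and 4 with DESeq2, 12, 14 and 8 without the low-count filter (1.5% of all tests called lower), and 22, 23 and 17 with replicates 4 and 5 only. Without the replicate block it was 0, 0 and 0 (2, 1 and 0 regions at an unadjusted edgeR p under 0.05), and the log2FC of Kcnk9 was above 0 in all but 12 of 24 regions (median 0.01), with 1.08 in Arc. Cacna1i was called in 3 regions with median-ratio size factors. Leaving out 1 replicate in turn gave 0 to 5 regions for Kcna2, 0 to 6 for Kcnk9 and 0 to 4 for Cacna1i, with 0, 0 and 0 without replicate 4 (8, 3 and 8 regions at an unadjusted edgeR p under 0.05). Because Arc's replicate numbers may be crossed between groups (r = -0.11), crossed pairs were added after the data were seen and gave 4, 2 and 2 regions. MPOA and Arc could not be fitted without replicate 4 or 5, so their calls were lost by design in those fits. The share of all transcripts at an unadjusted p under 0.05 is not given for these alternative fits. Among Sham levels, the differences of Kcnk9 between PAG and dorDG and of Cacna1i between CGC and Raphe were 3.38 and 2.20 without the block and were no longer called. Leaving out 1 replicate gave 0.68 to 1.95 for Kcna2 between CGC and LS and 1.09 to 1.86 for Cacna1i between CGC and Raphe. The values over regions and the test between regions kept their side of the threshold and their direction under every alternative run, though leaving out 1 replicate moved the values over regions from -1.76 to -1.01 for Kcna2, -2.17 to -0.89 for Kcnk9 and -1.62 to -0.72 for Cacna1i. Causes of these changes were not tested. Few reads limit all 3 channels: a median of 2 to 13 reads per FT library in replicates 1, 4 and 5.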
